A study of Mus musculus with 2 samples.

Results

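The Serpina gene cluster of mouse chromosome 12 was taken as the 17 bins of 50 kb between chr12:103600001 and chr12:104450000 (mm10). Given 10 Serpina genes, the bins were set by position, as every bin that overlaps 1 of them and every bin in between. The genes themselves were chosen with earlier results of these data known. The deposited bin table holds 54521 bins. Of the 17 bins, 10 overlap a member gene. In order along the chromosome the members are Serpina10, Serpina6, Serpina1b, Serpina1d, Serpina1a, Serpina1c, Serpina1e, Serpina12, Serpina3k and Serpina3n. The bins hold 24 protein-coding genes in RefSeq, 23 of them of the Serpina family and the other the edge of Ppp4r4.

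Contacts were measured by HiChIP, in which chromatin is cut, ligated to its spatial neighbours and precipitated with an antibody, here a rabbit antiserum against Foxa2, a forkhead pioneer factor of liver. The 2 libraries came from liver of wildtype mice killed 4 h after 1 oral gavage. The vehicle library is from mice given propylene glycol with Tween 80, and the GW4064 library from mice given the same solution with GW4064, an agonist of the bile acid receptor FXR. The sources used here do not give age, sex, strain or the number of animals behind a library, and contact counts offer no check of the labelled tissue by expressed markers. There were 22686004 contacts in the vehicle library and 29003442 in the other. With 1 library a group there is no test of the treatment. Each value compares these 2 libraries, and its 95% interval covers counting error only. Log2 values are GW4064 over vehicle after scaling to equal totals of the kind of contact named.

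Serpins are proteins that trap proteases through an exposed loop, which the protease cleaves and which then folds into the serpin's body. Hepatocytes secrete many of them into plasma, where they limit neutrophil, clotting and complement proteases, and a few serpins carry hormones in place of inhibiting an enzyme. In rodents the cluster has grown by gene duplication, so that Serpina1a to Serpina1e are near copies of a single alpha-1-antitrypsin gene, and the Serpina3 genes are copies of an alpha-1-antichymotrypsin gene.

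Promoter sequences are shown first because they show how alike the promoters of members are, which bears on the placing of short reads. A Foxa2 precipitation also makes forkhead-type motifs in them of interest. RefSeq promoters on GRCm38.p6 (the mm10 assembly), from 250 bases before to 50 after the start, matched 7 of the 10 members. The names without an entry are Serpina10, Serpina6 and Serpina3k. Each of the 5 Serpina1 promoters held the forkhead-type motif TGTTTGC and, 25 bases further on, the HNF1-type motif GTTAAT, both on the gene's own strand. The windows below run 5′ to 3′ from 30 bases before the first motif to 50 bases after the second, with both motifs in capitals.
Serpina1b, chr12:103738160-103738277, minus strand: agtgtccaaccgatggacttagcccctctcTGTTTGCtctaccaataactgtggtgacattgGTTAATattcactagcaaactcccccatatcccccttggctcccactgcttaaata
Serpina1d, chr12:103773594-103773711, minus strand: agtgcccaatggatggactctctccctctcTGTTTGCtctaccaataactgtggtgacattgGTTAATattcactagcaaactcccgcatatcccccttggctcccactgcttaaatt
Serpina1a, chr12:103863585-103863702, minus strand: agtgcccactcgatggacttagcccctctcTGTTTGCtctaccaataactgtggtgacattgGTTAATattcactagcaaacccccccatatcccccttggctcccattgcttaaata
Serpina1c, chr12:103904922-103905039, minus strand: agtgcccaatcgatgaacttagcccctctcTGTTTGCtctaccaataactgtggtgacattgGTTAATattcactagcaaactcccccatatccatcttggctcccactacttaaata
Serpina1e, chr12:103956920-103957037, minus strand: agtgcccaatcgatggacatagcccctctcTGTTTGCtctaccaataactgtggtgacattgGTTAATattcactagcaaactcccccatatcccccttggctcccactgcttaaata
The stretch of 38 bases from the first motif to the end of the second was the same in all 5 genes, and the whole windows of 118 bases were 90.7% to 97.5% identical between pairs. The forkhead-type motif began at position -58 from the start in Serpina1b, -48 in Serpina1d, -53 in Serpina1a, -59 in Serpina1c and -110 in Serpina1e. Over the full promoters, the 10 pairs of Serpina1 genes were 91.7% to 98.4% identical, with a median of 94.5%. Reads that fall in such stretches may be placed on the wrong copy or dropped. No source used here says how multiply placed reads were treated, so values of single Serpina1 genes are uncertain as to which copy they come from. How well reads can be placed over a whole bin was not measured. The Serpina3 genes, also copies, were not compared with each other, and the same uncertainty may hold for their bins.

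The other 2 members in the table, Serpina12 and Serpina3n, had none of the 4 motifs searched. Their promoters are given in full for contrast with the Serpina1 windows, in lower case since no motif was found.
Serpina12, chr12:104044394-104044693, minus strand: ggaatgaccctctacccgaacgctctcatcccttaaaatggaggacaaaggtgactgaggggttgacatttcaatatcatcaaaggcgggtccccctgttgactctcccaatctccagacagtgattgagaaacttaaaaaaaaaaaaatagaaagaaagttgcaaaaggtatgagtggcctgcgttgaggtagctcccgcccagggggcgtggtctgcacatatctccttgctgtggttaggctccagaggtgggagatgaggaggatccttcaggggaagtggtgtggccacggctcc
Serpina3n, chr12:104406458-104406757, plus strand: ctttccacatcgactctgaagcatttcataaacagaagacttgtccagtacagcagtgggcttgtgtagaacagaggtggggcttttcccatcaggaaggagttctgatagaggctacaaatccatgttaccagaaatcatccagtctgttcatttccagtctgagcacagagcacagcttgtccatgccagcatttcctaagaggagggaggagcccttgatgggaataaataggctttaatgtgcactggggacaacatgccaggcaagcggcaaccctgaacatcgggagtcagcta
Pairs that include either of these 2 were 56.3% to 66.5% identical. Motifs were searched on both strands and none of the 4 overlaps another in these promoters. TGTTTGC was in 5.08% of 32544 distinct RefSeq promoters, GTTAAT in 7.13%, TGTTTAC in 3.66% and AGGTCA, the core of many nuclear receptor sites, in 16.2%. TGTTTAC and AGGTCA were in 0 of the 7 member promoters. The 5 promoters with both motifs lie in bins 3, 4, 6, 7 and 8 of the cluster. A match is a description of letters and not a bound site, and no relation of motif to contact was tested.

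Contacts of the cluster as a whole were fewer in the GW4064 library than depth accounts for, in each class of contact. Local contacts, which join a cluster bin to another bin at most 1 Mb away, numbered 2140 in the vehicle library and 2236 in the GW4064 library, although the GW4064 library held 1.42 times as many local contacts in all. The scaled ratio was 0.734 (0.692 to 0.779), a log2 of -0.45 (95% interval -0.53 to -0.36). Contacts within a bin numbered 1967 and 2210, a log2 of -0.30 (-0.39 to -0.21). Contacts beyond 1 Mb on the same chromosome numbered 2907 and 3172, a log2 of -0.21 (-0.28 to -0.13), and contacts with other chromosomes 3457 and 3204, a log2 of -0.18 (-0.25 to -0.11). The intervals of the local class and of the last pair of classes do not overlap. Each class was scaled to its own total, and the libraries differed in makeup. Local contacts were 21.2% of the vehicle library and 23.6% of the GW4064 library, and contacts with other chromosomes 22.3% and 18.3%. Of the cluster's contacts, 20.4% and 20.7% were local, and 33.0% and 29.6% were with other chromosomes. The order of the classes thus depends on this scaling. Total contacts were 10471 and 10822, a log2 of -0.31 (-0.35 to -0.27). Counts of a HiChIP library follow both how much of a bin was precipitated and how often it lay near others, and these cannot be told apart here. Tissue was bulk liver, so a change in cell makeup and a change within hepatocytes cannot be told apart.

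Lower values ran along the whole cluster. All 17 bins had a local log2 below 0, from -0.82 to -0.11 with a median of -0.52, against a median of 0.02 over all bins of the genome with at least 200 local contacts. The interval was below 0 in 13 of 17 bins and above it in 0, against 14.3% and 10.2% of bins genome-wide. Cluster bins are not independent of each other. In the vehicle library 1411 of the 2140 local contacts join 2 cluster bins and count in both. By the stricter rule of a difference of at least 1.5-fold with an interval that excludes 1, 6 of 17 bins were lower and 0 were higher, against 3.19% and 0.226% of bins. They include the bin of Serpina1d, the bin of Serpina1a and the bin with the start of Serpina1e. A further one holds the start of Serpina1c and the 3′ part of Serpina1e. The others are bin 10 and the bin of Serpina3m, an antichymotrypsin copy that is not among the members. Bin 10 holds the pseudogene Serpina4-ps1 and only the lower-coordinate edge of Serpina5 (protein C inhibitor). Of those 6, 4 overlap a member. For within-bin contacts, 13 of 17 bins had at least 200 contacts and 5 of those had an interval below 0, against 7.18% of bins. For contacts with other chromosomes the count was 3 of 17, against 10.1%.

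**Figure D1:**
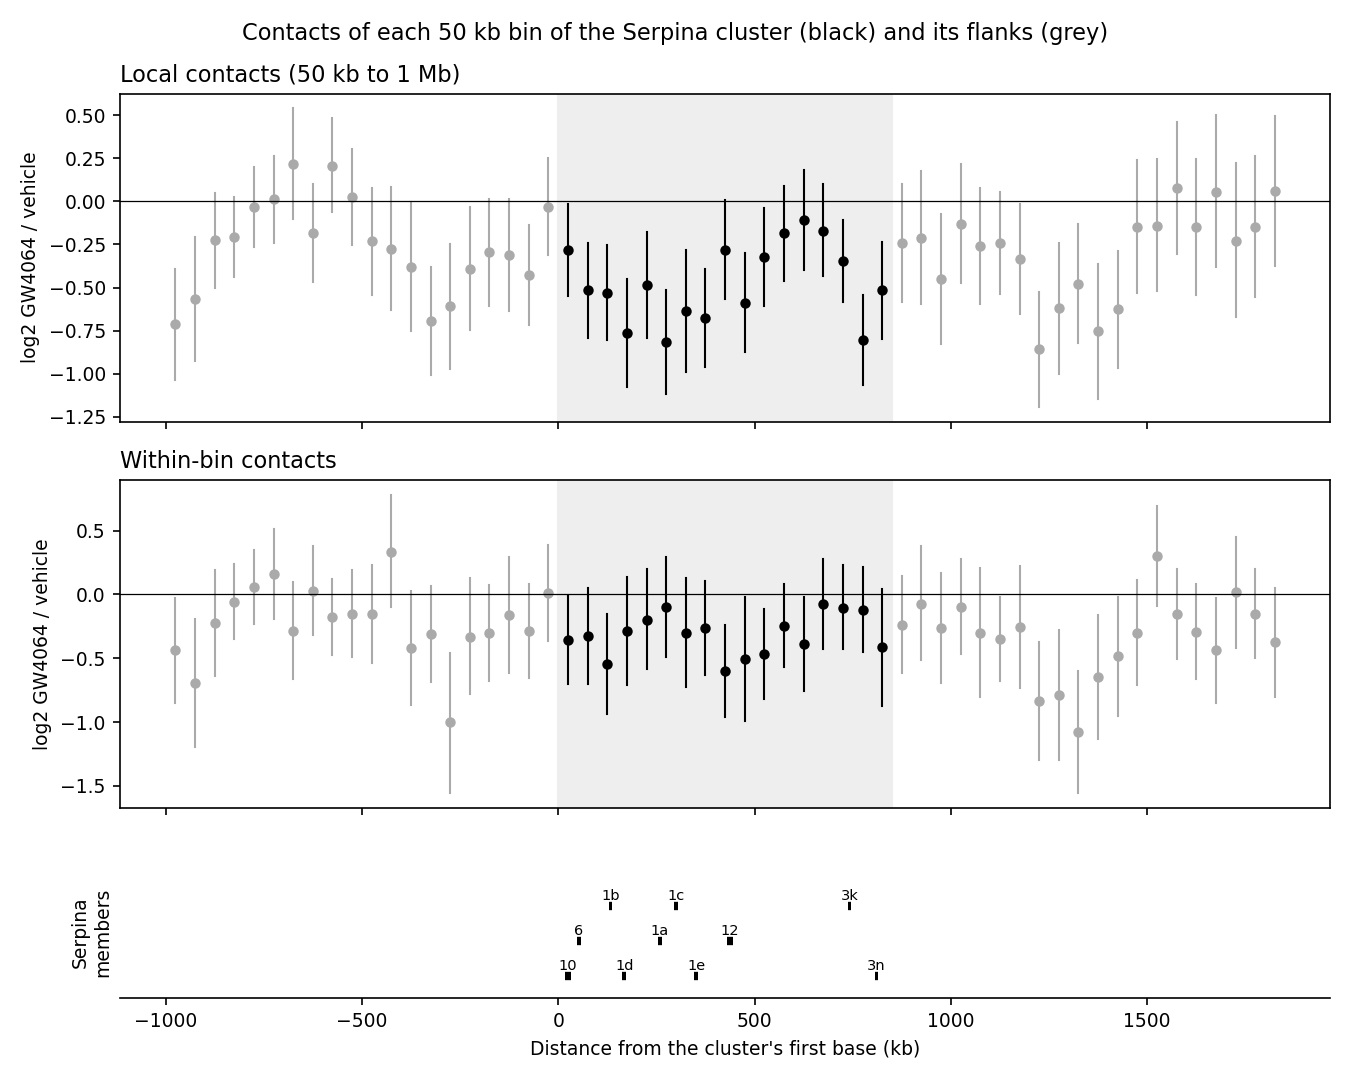
Each point is the log2 ratio of GW4064 over vehicle contacts of a 50 kb bin and the bar its 95% counting interval, for local contacts (top) and within-bin contacts (middle), against distance in kb from the first base of the cluster; the strip at the bottom marks the 10 members by the end of their names. Cluster bins (black, shaded) all lie below 0 in the upper panel, lowest at Serpina1a (-0.82) and highest at Serpina3f and Serpina3g (-0.11), while grey flank bins reach both similar and higher values.

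The flanks were lower too, with medians nearer 0 than that of the cluster. Over the 20 bins upstream the median local log2 was -0.25 and 3 were lower by the 1.5-fold rule, and over the 20 bins downstream the median was -0.24 with 4 lower. Among the nearest genes on each side, local contacts of the Ifi27 bin were 163 and 189, a log2 of -0.30 (-0.61 to 0.02). Those of Ifi27l2a, in the same bin, were identical, and those of Ifi27l2b were 149 and 171, a log2 of -0.31 (-0.64 to 0.02). Downstream, Gsc (goosecoid, a developmental homeobox gene) had 133 and 160, a log2 of -0.24 (-0.58 to 0.10). Dicer1, which cuts microRNA precursors, had 405 and 473, a log2 of -0.29 (-0.48 to -0.09). Clmn, which encodes calmin, had 376 and 361, a log2 of -0.57 (-0.78 to -0.36), a value within the range of the members. One of the bins of Clmn had 173 and 136, a log2 of -0.86 (-1.19 to -0.52), lower than the lowest cluster bin, and a bin of Syne3 had 122 and 103, a log2 of -0.75 (-1.15 to -0.36). Single flank bins thus reached values as low as those of the Serpina1 bins.

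Member by member, the interval of the local log2 was below 0 in 9 of 10, against 41.0% of 20509 protein-coding loci, and above 0 in 0 of 10, against 5.28%. A difference of at least 1.5-fold was found for 4 of 10, against 11.5% of loci. The median member was at -0.52 and the median locus at -0.17, and 15.5% of loci were at or below the median member. The interval of 7 members lay below the median locus, and the share of all loci with such an interval was not counted. Some members share bins and are not independent: Serpina10 and Serpina6 share bin 1, Serpina1a and Serpina1c share bin 6, and Serpina1c and Serpina1e share bin 7. Where every local value is scaled to total contacts of the library in place of local contacts, all 10 remain below 0 and 7 keep an interval below 0. That scaling adds 0.15 to every local log2, and the share of all loci under it was not counted.

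The alpha-1-antitrypsin copies had the lowest ratios. Serpina1a, a copy of alpha-1-antitrypsin, the elastase inhibitor of plasma, had 209 local contacts in the vehicle library and 169 in the GW4064 library, a log2 of -0.82 (-1.12 to -0.52). Serpina1d had 187 and 157, a log2 of -0.76 (-1.08 to -0.45). Serpina1c had 319 and 278 over 2 bins, a log2 of -0.71 (-0.94 to -0.47), and Serpina1e 338 and 298, a log2 of -0.69 (-0.92 to -0.46). Serpina1b, at the upstream end of the group, had 224 and 221, a log2 of -0.53 (-0.80 to -0.25). All 5 had fewer contacts in the deeper library even before scaling. Their intervals overlap each other, so their order is within counting error.

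Serpina3n, the acute-phase antichymotrypsin that inhibits granzyme B and cathepsin G, had 215 and 214 local contacts, a log2 of -0.52 (-0.80 to -0.24). Serpina3k, the kallikrein-binding copy, had 276 and 309, a log2 of -0.35 (-0.59 to -0.11). Serpina12, the adipokine vaspin, had 192 and 225, a log2 of -0.28 (-0.56 to 0.01). It was the single member whose interval reached 0. Serpina10, the protein Z-dependent inhibitor of clotting factor Xa, had 218 and 255, a log2 of -0.28 (-0.55 to -0.02). Serpina6, which carries corticosteroids in plasma and inhibits no protease, had 399 and 428 over 2 bins, a log2 of -0.41 (-0.61 to -0.21).

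Within-bin and local values of single members were compared next. Serpina1a had 100 within-bin contacts in the vehicle library and 129 in the GW4064 library, a log2 of -0.10 (-0.49 to 0.29), beside its local log2 of -0.82. Serpina12 had 137 and 125 within-bin contacts, a log2 of -0.60 (-0.96 to -0.24), beside a local log2 of -0.28 (-0.56 to 0.01). The intervals of these classes overlap for Serpina12 and do not for Serpina1a. These 2 members have the highest and the lowest within-bin values, and the difference between classes was not tested. Of the 8 members with at least 200 within-bin contacts, 5 had an interval below 0, against 26.9% of loci. They are Serpina10, Serpina6, Serpina1b, Serpina1e and Serpina12. Contacts with other chromosomes were lower with an interval below 0 in 0 of 10 members and higher in 0, against 28.7% and 5.77% of loci, and the median member (-0.11) was at the median locus (-0.11). For Serpina1a these contacts were 194 and 198, a log2 of -0.04 (-0.33 to 0.25).

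**Figure D2:**
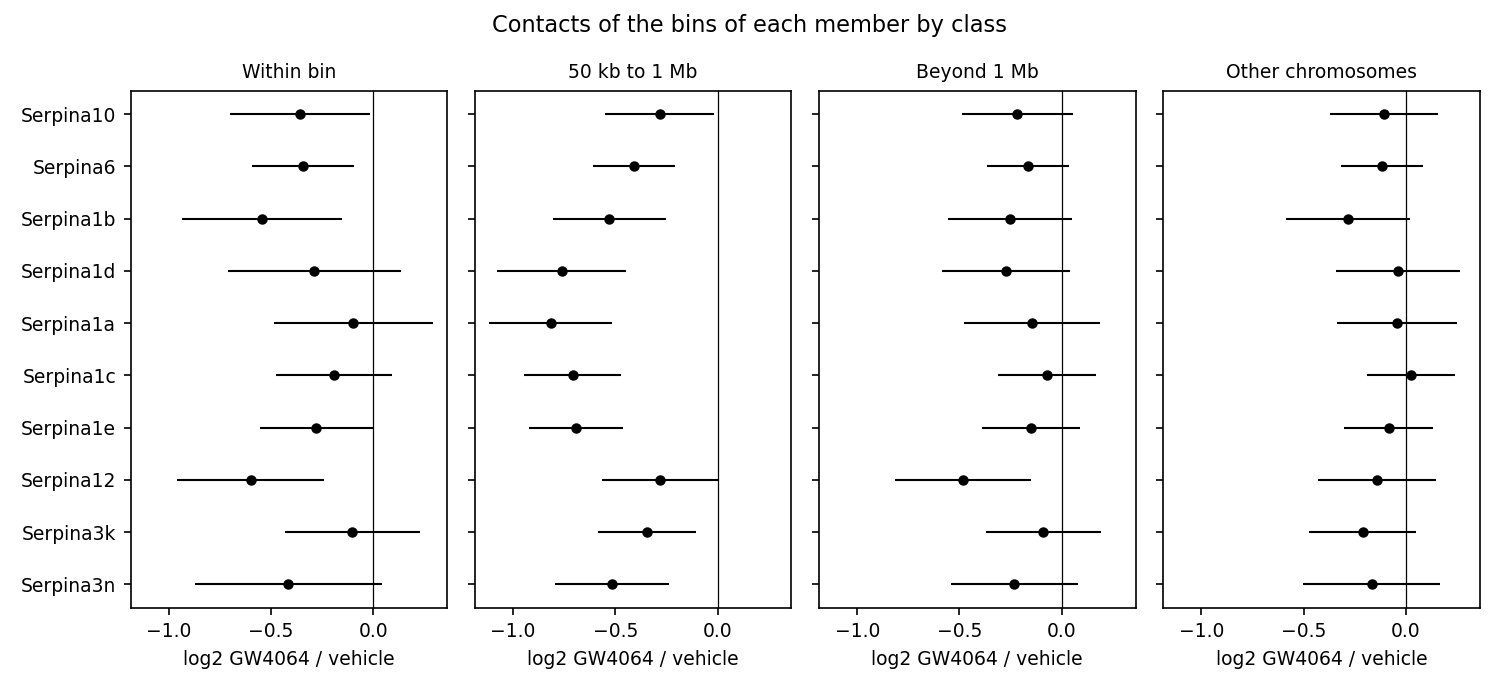
Points are log2 ratios of GW4064 over vehicle contacts of the bins of each member with 95% counting intervals, in 4 panels by class of contact. The Serpina1 genes stand farthest left among local contacts (-0.82 to -0.53), while all 10 intervals cross 0 for contacts with other chromosomes.

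Contacts of cluster bins with each other formed 136 pairs of bins, with 1411 contacts in the vehicle library and 1437 in the GW4064 library. Against the mean of all bin pairs at the same distance in the same library, the cluster held 1.28 times the expected number (1.21 to 1.35) in the vehicle library and 0.915 times (0.868 to 0.964) in the GW4064 library. It thus went from above the genome-wide mean to below it, a log2 of -0.48 (-0.59 to -0.38). Neither level was unusual among 43448 windows of the same length elsewhere. In the vehicle library their median was 1.06, and 14.7% were at or above the cluster. In the GW4064 library their median was 1.08, and 28.2% were at or below the cluster. The log2 was less common, with 1.39% of windows at or below it. This log2 depends on the expectation used. Where the expected number also takes account of the total contacts of both bins, the cluster held 1.63 times the expected number in the vehicle library and 1.80 times in the GW4064 library, a log2 of 0.15 (0.04 to 0.25). In that measure the cluster stood above expectation in both libraries and slightly higher with GW4064. This expected number multiplies the totals of both bins, so the cluster's lower total (a log2 of -0.31) enters through each of them. Those totals include the contacts inside the cluster. Windows elsewhere were not scored in this measure. The lower number of contacts within the cluster thus went with a lower total of its bins, which ranged from 64.2% to 111% of the chromosome 12 median in the vehicle library and from 49.8% to 94.1% in the GW4064 library.

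By distance, the difference was smallest between near bins. At 50 to 100 kb there were 830 and 896 contacts, a log2 of -0.38 (-0.52 to -0.24). At 150 to 250 kb there were 345 and 344, a log2 of -0.56 (-0.78 to -0.34). At 300 to 500 kb there were 201 and 165, a log2 of -0.82 (-1.12 to -0.51). At 550 to 800 kb, with 35 and 32 contacts, the log2 was -0.62 (-1.36 to 0.11). Intervals of the first and the third class overlap only between -0.52 and -0.51, and the last class was too thin to place.

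Among the groups of members, the difference within a group was largest for the 5 Serpina1 genes. Pairs of bins within that group held 194 contacts in the vehicle library and 144 in the GW4064 library, or 1.31 and 0.686 times the number expected from distance, a log2 of -0.93 (-1.25 to -0.61). When total contacts entered the expectation the log2 was -0.24 (-0.56 to 0.08). The pair of Serpina1b with the bin of Serpina1a, 150 kb apart, went from 28 contacts to 14, or from 3.63 to 1.23 times the expected number, a log2 of -1.56 (-2.60 to -0.59), and of -0.82 (-1.86 to 0.16) with total contacts in the expectation. Serpina12, Serpina3k and Serpina3n had contacts with each other above expectation in both libraries, with 40 and 47 contacts or 2.17 and 1.74 times the expected number, a log2 of -0.32 (-0.96 to 0.33). The difference between these 2 groups was a log2 of -0.61 (-1.34 to 0.11), which does not exclude 0.

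Contacts between the Serpina1 genes and the trio of Serpina12, Serpina3k and Serpina3n were 87 and 113, a log2 of -0.13 (-0.55 to 0.29). The same log2 was 0.57 (0.15 to 0.99), from 1.38 to 2.05 times the expected number, when total contacts entered the expectation. The trio did not share the higher count evenly. Contacts of the 2 bins of Serpina1e were 38 and 58 with Serpina12, 16 and 14 with Serpina3k, and 8 and 8 with Serpina3n. The adjoining bins 8 and 9 alone had 33 and 46. Serpina10 and Serpina6 had 124 and 117 contacts with the Serpina1 genes, a log2 of -0.61 (-0.98 to -0.23). Their contacts with the trio numbered 14 and 7, a log2 of -1.51 (-3.06 to -0.10), and rest on few counts.

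In both maps the cluster divided into an upstream block, from Serpina10 to Serpina1c (bins 1 to 7), and a downstream block, from Serpina1e to Serpina3n (bins 8 to 17). The split was placed after the maps were seen. The values by block therefore describe the split and do not test it. At matched distances of 100 to 300 kb, pairs within the upstream block held 1.59 times the expected number in the vehicle library and 0.970 times in the GW4064 library. Pairs within the downstream block held 1.61 and 1.22 times, and pairs between the blocks 0.906 and 0.554 times. Between the libraries, the upstream block had 411 and 371 contacts, a log2 of -0.65 (-0.86 to -0.44), the downstream block 761 and 855, a log2 of -0.34 (-0.48 to -0.20), and pairs between the blocks 239 and 211, a log2 of -0.71 (-0.98 to -0.43). The upstream block was lower than the downstream block by a log2 of -0.31 (-0.56 to -0.06). Expected numbers from distance and total contacts gave -0.05 (-0.26 to 0.15), 0.30 (0.16 to 0.45) and -0.07 (-0.35 to 0.20).

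**Figure D3:**
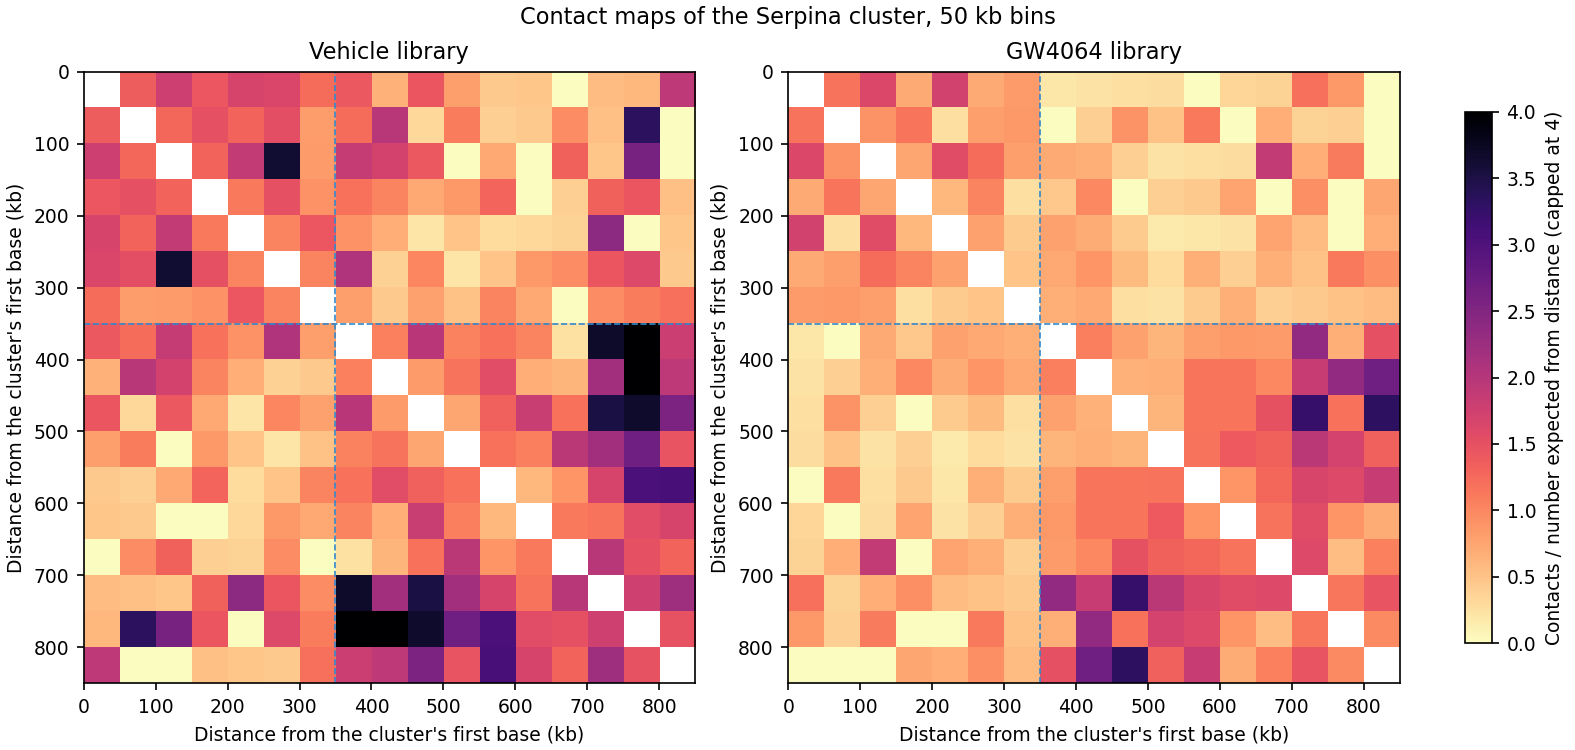
Each cell is a pair of 50 kb bins and its colour the number of contacts over the number expected from distance, capped at 4, in the vehicle library (left) and the GW4064 library (right), with both axes in kb from the first base of the cluster and the dashed line between the blocks. The vehicle map is darkest where the bins at 350 to 500 kb meet those at 700 to 800 kb, and the block off the diagonal is pale in both maps.

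The bin with the largest difference in contacts with the rest of the cluster was bin 16, which holds Serpina3m (chr12:104350001-104400000). It had 236 contacts with the other 16 bins in the vehicle library and 170 in the GW4064 library, or 2.00 (1.75 to 2.27) and 1.02 (0.871 to 1.18) times the number expected from distance, a log2 of -0.97 (-1.27 to -0.68). In the vehicle library it stood highest of the 17 bins, and in the GW4064 library it was passed by the bins of Serpina3k (1.46), Serpina3n (1.18), Serpina3i (1.15) and Serpina3c (1.04). Its within-bin contacts numbered 136 and 173, a log2 of -0.12 (-0.45 to 0.21). With the downstream block alone it had 214 and 158 contacts, a log2 of -0.94. Without bin 16 the downstream block was at -0.16 (-0.32 to 0.01) in place of -0.34, and the whole cluster at -0.40 (-0.52 to -0.29). Once total contacts were in the expectation, the log2 of bin 16 with the rest was -0.29 (-0.58 to 0.00). Serpina3m was picked from the map as the bin with the lowest log2 of the 17, not by the rule for named genes, so its values are a description.

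The next bin, that of Serpina3k, had a smaller difference, with 239 and 265 and a log2 of -0.36 (-0.61 to -0.10). Bins 13 and 14, at 600 to 700 kb from the start of the cluster, had intervals that included 0. The bin of Serpina3f and Serpina3g had 133 and 194, a log2 of 0.03 (-0.29 to 0.36), and that of Serpina3i had 170 and 218, a log2 of -0.15 (-0.45 to 0.15). By the expectation from distance and total contacts these 2 bins were higher in the GW4064 library, at 0.60 (0.28 to 0.93) and 0.33 (0.03 to 0.63), and so was the bin of Serpina12, at 0.51 (0.20 to 0.83). The bins of the Serpina1 genes had intervals that included 0 in that measure, from -0.18 at Serpina1a to 0.08 at Serpina1b.

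**Figure D4:**
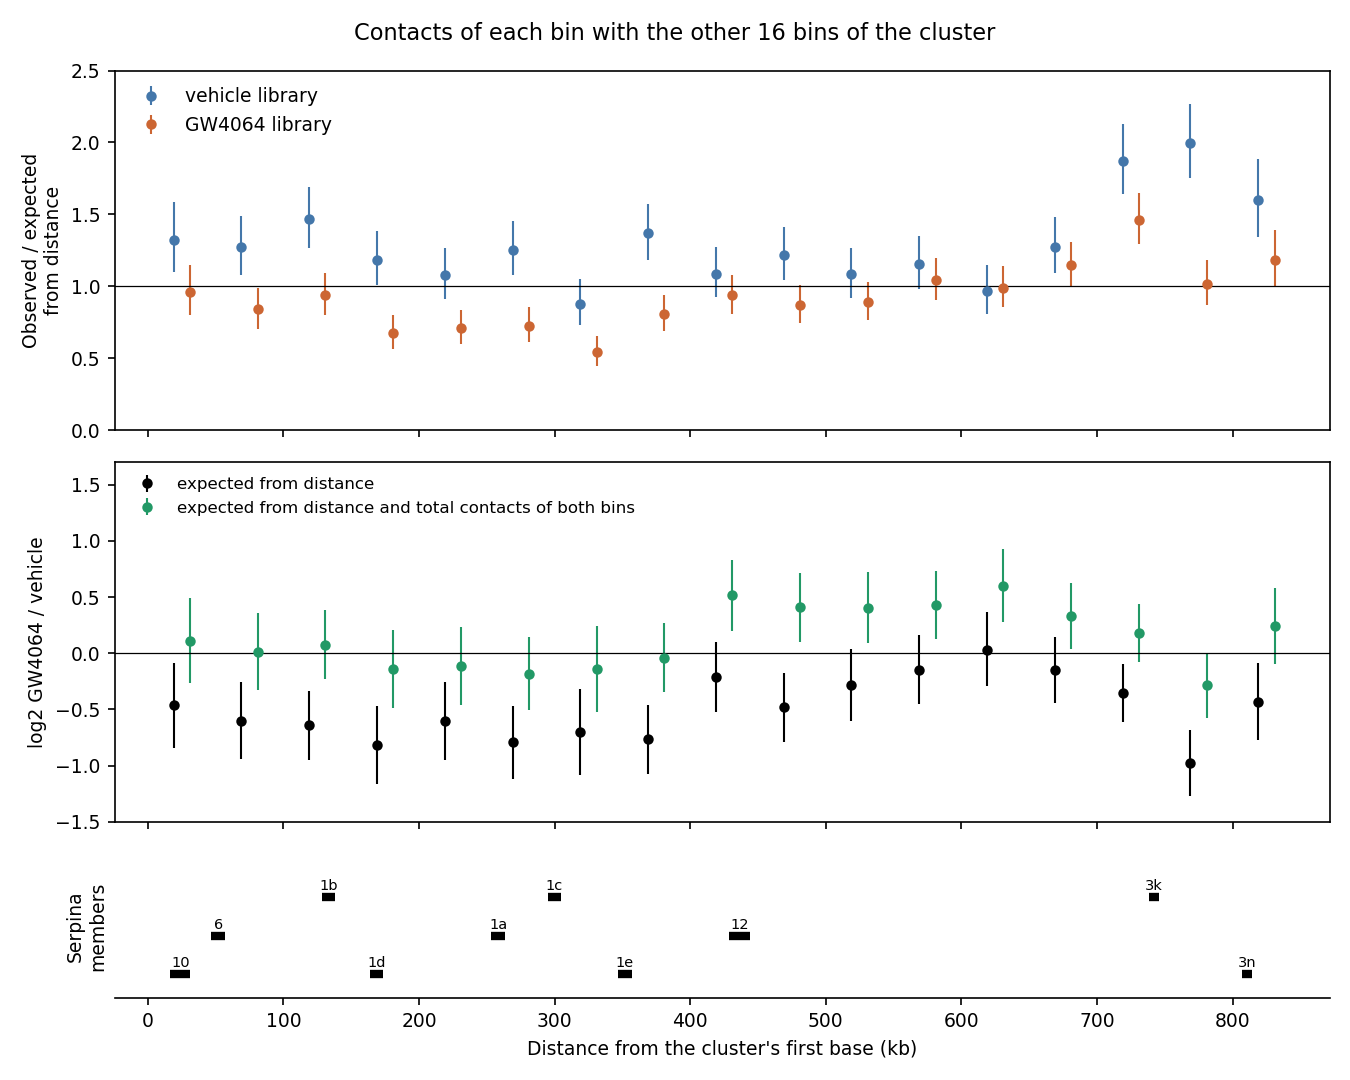
Contacts of each bin with the other 16 bins of the cluster are plotted against distance in kb from its first base: observed over expected from distance in each library (top) and the log2 ratio of the libraries under both expectations (middle), with 95% counting intervals and the members below. The Serpina3m bin, at 750 to 800 kb, goes from 2.00 to 1.02 in the upper panel, and in the middle panel the green points, which take account of total contacts, lie above the black ones throughout.

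Single pairs of bins at 100 kb or more had at least 20 contacts over both libraries in 34 of 120 cases. Of these, 7 were lower with GW4064 by at least 2-fold, with intervals that exclude 1, and 0 were higher by that much, against 2.48% and 2.26% of such pairs genome-wide. With total contacts of both bins in the expectation 2 of the 7 kept an interval below 0 and 5 did not. By that expectation 2 of the 34 were at least 2-fold lower and 1 at least 2-fold higher, against 1.53% and 2.22% of pairs. The pair that was higher joined bin 10, at the edge of Serpina5, to the bin of Serpina3n. It had 9 and 17 contacts and an interval of the log2 from 0.05 to 2.65. The largest difference joined the bin of Serpina1e, Serpina11 and Serpina9 to that of Serpina3m, 400 kb apart. It had 21 contacts in the vehicle library and 3 in the GW4064 library, or 6.76 and 0.668 times the number expected from distance, a log2 of -3.34 (-5.73 to -1.60). With total contacts in the expectation the log2 was -2.53 (-4.92 to -0.78). The pair of bin 10 with the bin of Serpina3j and Serpina3k, 250 kb apart, was enriched in both libraries. It had 17 and 23 contacts, or 3.51 and 3.24 times the expected number, a log2 of -0.11 (-1.08 to 0.88). Pooled over the libraries, 11 of the 34 pairs held at least 2 times the expected number, a share not far from the 27.0% of pairs genome-wide.

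Contacts of the cluster with the 2 Mb on each side were below the genome-wide mean in both libraries. There were 1097 in the vehicle library and 1156 in the GW4064 library, or 0.659 and 0.501 times the expected number, a log2 of -0.40 (-0.52 to -0.27). Upstream the counts were 593 and 618, a log2 of -0.41 (-0.58 to -0.25), and downstream 504 and 538, a log2 of -0.38 (-0.55 to -0.20). The sides differed by -0.03 (-0.28 to 0.21), and contacts inside the cluster and with the flanks by -0.09 (-0.25 to 0.07), so neither difference was beyond counting error. With total contacts in the expectation the log2 of the flanks was 0.14 (0.02 to 0.26).

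The flank bin with most contact for its distance was that of Btbd7, 750 kb upstream, with 24 and 26 contacts or 1.34 and 1.06 times the expected number. The adjoining bin of Ppp4r4, a regulatory subunit of protein phosphatase 4, had 92 and 131, or 1.02 times the expected number in both libraries, a log2 of 0.00 (-0.40 to 0.40). The third on that side was the bin of Rin3, with 14 and 12. Downstream the first was the bin of Syne3 and Glrx5, 550 kb away, with 24 and 22 contacts or 1.08 and 0.713 times the expected number. The bin shared by Dicer1 and Clmn had 33 and 25, a log2 of -0.90 (-1.71 to -0.10), and the next bin of Clmn 33 and 20, a log2 of -1.21 (-2.09 to -0.37).

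Insulation was scored as the log2 of contacts that cross a bin, between the 500 kb on each side, over the chromosome 12 mean of that library. A dip of the score below that of neighbouring bins marks a boundary, whereas a lower level over many bins does not. The score takes no account of the total contacts of bins, which after scaling were lower in the cluster in the GW4064 library. The score was lower in the GW4064 library at each of the 17 bins, with differences from -0.86 to -0.39 and a mean of -0.61, against 48.1% of chromosome 12 bins. It was also lower at 77 of the 80 flank bins within 2 Mb, with a mean of -0.31. Lower scores thus ran through the wider region and not the cluster alone. Of chromosome 12 bins, 1.80% had a difference at or below the mean of the cluster. At the bin of Serpina1d it was -0.06 in the vehicle library, with 48.3% of chromosome 12 bins lower, and -0.91 in the GW4064 library, with 15.2% lower, from 259 and 214 contacts across it. The bin of Serpina3i had the highest score of the cluster in the vehicle library (0.48), and its score in the GW4064 library was -0.05. The place of the lowest score inside the cluster depended on the window. With 500 kb it was bin 1 in the vehicle library (-0.59) and bin 3 in the GW4064 library (-1.12), and with 1 Mb bins 1 and 6. With 250 kb it was bin 8, that of Serpina1e, in both libraries, at -0.59 and -1.06, but other bins were nearly as low. In the vehicle library bin 17, that of Serpina3n, was at -0.57, and in the GW4064 library bins 6 and 9 were each at -1.03.

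**Figure D5:**
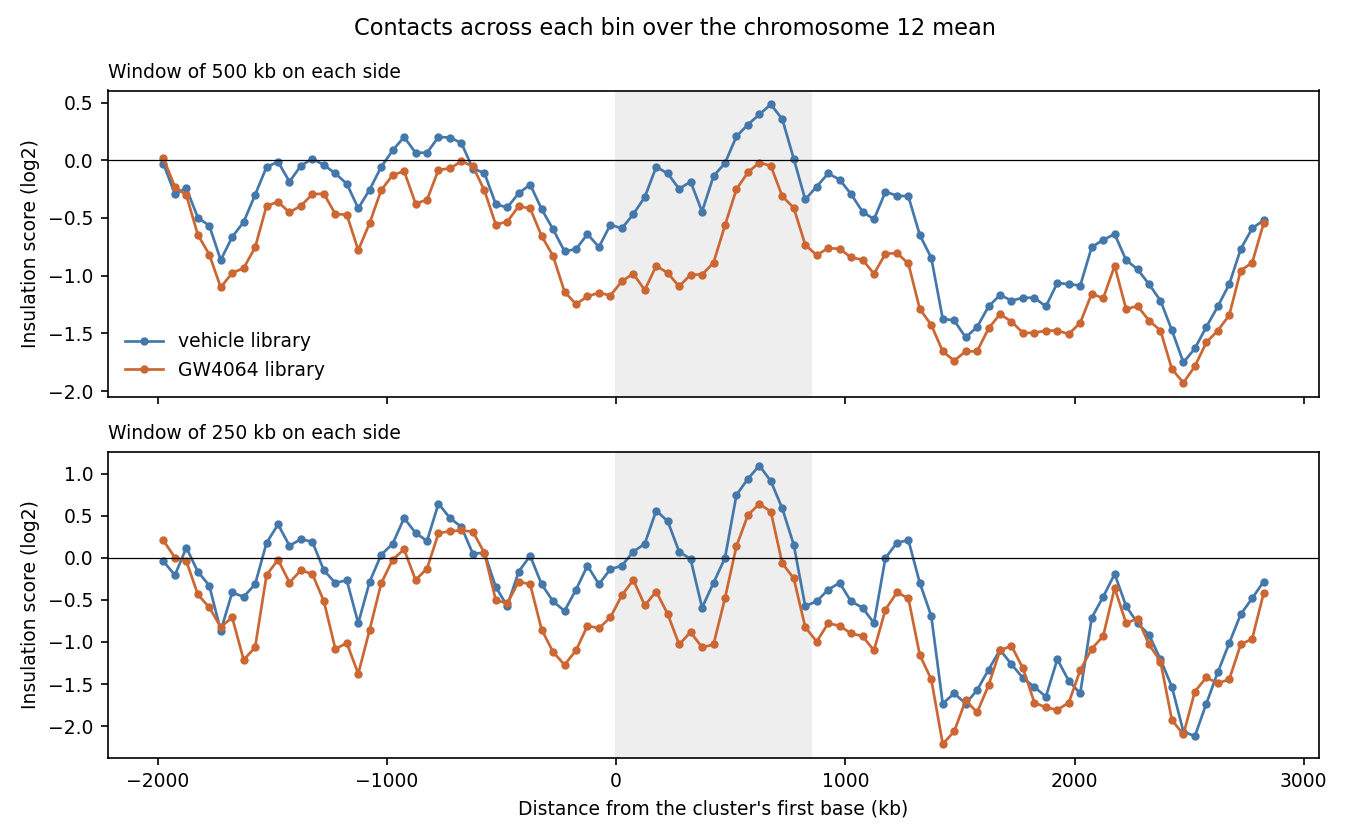
The insulation score (log2 of contacts across a bin over the chromosome 12 mean) is plotted against distance in kb from the first base of the cluster for the vehicle and GW4064 libraries, with a window of 500 kb (top) and 250 kb (bottom); the cluster is shaded. The GW4064 line runs below the vehicle line over the whole cluster, with differences from -0.86 to -0.39 in the upper panel, and in the lower panel both lines are lowest inside the cluster at 350 to 400 kb (-0.59 and -1.06).

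Other loci give a scale for these values. At the albumin locus (Alb, Afp and Afm), which liver also uses heavily, local contacts were 677 and 780, a log2 of -0.30 (-0.46 to -0.15). The Serpina cluster was lower than it by -0.14 (-0.32 to 0.03), a difference within counting error. At the Cyp2c cluster of drug-metabolising enzymes the counts were 4130 and 5381, a log2 of -0.13 (-0.19 to -0.07), and the Serpina cluster was lower by -0.32 (-0.42 to -0.21). The Serpinb clusters hold intracellular serpins that are mostly used outside hepatocytes. Their log2 was 0.03 (-0.05 to 0.11) on chromosome 1, with 2076 and 3010 local contacts, and 0.01 (-0.07 to 0.09) on chromosome 13, with 2236 and 3205. The Serpina cluster was lower than these by -0.47 (-0.59 to -0.35) and -0.46 (-0.57 to -0.34). Contacts inside each locus were also scored by the expectation from distance. Their log2 was 0.00 (-0.36 to 0.37) at albumin, over 3 bins, and -0.07 (-0.14 to -0.001) at Cyp2c. For Serpinb it was 0.09 (-0.02 to 0.20) on chromosome 1 and 0.11 (0.01 to 0.20) on chromosome 13. Inside the Serpina cluster it was -0.48, and these differences were not tested.

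Among 11 listed serpins encoded elsewhere, 6 had an interval below 0 and 0 above it, against the 41.0% and 5.28% of protein-coding loci given above. Their median was -0.25. Over the 10 distinct sets of bins they occupy, 5 had an interval below 0, a share near that of all loci. The lowest was Serping1, the complement C1 inhibitor, with 238 and 198 local contacts, a log2 of -0.77 (-1.05 to -0.50). Serpinf1 and Serpinf2, which encode pigment epithelium-derived factor and alpha-2-antiplasmin and share a bin, had 188 and 180, a log2 of -0.57 (-0.87 to -0.27). Serpinc1, which encodes antithrombin, had 483 and 578, a log2 of -0.25 (-0.43 to -0.07), and Serpini1, the neuronal neuroserpin, 419 and 663, a log2 of 0.15 (-0.03 to 0.33). Of the 15 Serpina genes in the cluster that are not members, 11 had an interval below 0 and 0 above it, against the same 41.0% and 5.28%, with a median of -0.35, from -0.80 at Serpina3m to -0.11 at Serpina3f and Serpina3g. The 15 genes occupy 12 distinct sets of bins, of which 9 had an interval below 0, and 5 of the genes share a bin with a member, so these counts are not independent of each other or of the members.

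Among all 43448 windows of 17 bins that do not overlap the cluster, 2.49% had a local log2 at or below that of the cluster and 1.39% an inside log2 at or below it. Windows with more genes tended to lower values. Among the 1828 windows that hold 21 to 30 protein-coding genes, as the cluster holds 24, the median local log2 was -0.26 and 16.7% were at or below the cluster, and for contacts inside the window the share was 7.49%. The 5 windows closest to the cluster over the within-bin, local, far and between-chromosome log2 values include one on chromosome 15 with Upk3a, Fam118a and Smc1b, one on chromosome 7 with 0 protein-coding genes, and a second on chromosome 15 with Csdc2 and Pmm1. The others are on chromosome 3, with Snx27, Tuft1 and Selenbp2, and on chromosome 6, with Bid, Mical3 and Pex26.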

How the data were processed

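Foxa2 HiChIP contacts of 1 vehicle and 1 GW4064 liver library were analysed. The deposited matrices hold raw counts of contacts per pair of 50 kb bins, with no normalization, and the deposited bin tables hold the bin number, an index with no unit. Per the submitters' processing notes, HiC-Pro and Bowtie2 2.2.9 were used on mm10. No version of HiC-Pro, filter on reads, treatment of duplicates or pooling is stated in the sources used here.

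Chromosomes 1 to 19 and X were used. Each ratio was scaled so that both libraries had the same total of the contact class (within a bin, local up to 1 Mb, beyond 1 Mb, other chromosomes), or of the distance for bin pairs. A contact with both ends in a region counts once. Ratios have exact conditional binomial 95% intervals and observed over expected values exact Poisson intervals, which cover counting error only. Bins and loci needed 200 contacts over both libraries and pairs 20. Gene positions and promoters are from RefSeq (GRCm38.p6). Python 3.11.15, numpy 2.4.6, pandas 2.3.3 and scipy 1.17.1 were used. The named genes are all members, the other Serpina genes of the bins, listed serpins and loci elsewhere, the 3 nearest genes on each side, the 3 flank bins with most contact on each side and the 5 most similar windows. Members and lists were chosen with earlier results of these data known. The split into blocks, the Serpina3m bin and the 2 flank bins of Clmn and Syne3 named for low values were chosen after their values were seen. Protein sequences were not used here.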

Additional observations from a re-analysis of the deposited data

How the results depend on the processing

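Scaling changed the size but not the direction of the cluster's local and within-bin log2. Contacts beyond 1 Mb and with other chromosomes were not rescaled. With equal total contacts of the libraries the local log2 of the cluster was -0.29 and the within-bin log2 -0.19. The other alternatives for these classes, which changed the distance limit, the bins or the reference, stayed within the interval of the reported value. Contacts of bin pairs reversed when the expected number took account of the total contacts of both bins: the log2 was 0.15 inside the cluster, 0.14 with the flanks and 0.30 in the block from Serpina1e to Serpina3n, the last by a setting added after the data were seen. This expectation multiplies the totals of both bins, so the cluster's lower totals after scaling enter through each of them. The cause of the lower totals was not tested. By the same expectation 2 bin pairs in place of 7 were lower. Without neighbour bins the vehicle library held 1.37 times the expected number inside the cluster, above the reported interval, and the log2 was -0.58. Under the other planned settings, log2 values inside the cluster, with the flanks and for insulation stayed within the reported interval or range. Against the Serpinb cluster of chromosome 13 the difference was -0.26 for within-bin and -0.30 for total contacts. By a 2-fold rule 0 bins of the cluster were lower, and by an interval that excludes 1 at any size 13 were. With 1 library a group, no library could be left out. No paired analysis was possible because each group has 1 library. At 50 kb, no value can be assigned to a promoter.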
